A study of Homo sapiens with 18 samples.

Results

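The genes described here are 33 genes of sterol and fatty acid synthesis, chosen by name for their place in the pathways, with earlier results of these data known, and found in the deposited tables by NCBI Gene ID. All 33 had a record, among 21662 gene IDs in all. Of these, 7 act early in the mevalonate pathway, 11 act late in sterol synthesis, 4 control the transcription factors called SREBPs or encode them, 2 move or take up sterol, and 9 make fatty acids, supply their precursors or activate them. RNA was sequenced from 18 libraries of 3 human cell lines of NK/T cell lymphoma, a cancer of natural killer and T cells, named SNT-8, SNT-16 and SNK-10. The cells received icaritin, a flavonoid compound, or its solvent DMSO for 12 h, which made 6 groups of 3 libraries. The labels give the genotype WT for all lines, so no group carries an engineered allele, and each line is a single cultured population. The dose of icaritin is not given in the sources used here.

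Cells make cholesterol from acetyl-CoA. The early, mevalonate part of the path builds isoprenoid units that also serve protein prenylation, dolichol and ubiquinone, and the late part starts with squalene and ends in cholesterol. Fatty acids come from the same acetyl-CoA through malonyl-CoA and fatty acid synthase. When the sterol level of the endoplasmic reticulum is low, SCAP escorts SREBP proteins to the Golgi, where they are cleaved and released to switch on genes of both pathways, while INSIG1 holds SCAP back when sterol is plentiful.

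The libraries held between 9526431 and 10100453 expected counts, the estimated fragments of all genes, and 14396 genes had enough counts to be tested. Levels below are CPM, the counts of a gene divided by the TMM-scaled size of its library, and differences are log2 fold changes ± SE from edgeR's quasi-likelihood test, with p-values adjusted over all tested genes and a threshold of 0.05. Nothing in the labels says that replicates were separate cultures, so a p-value reflects the scatter among these samples, which may be technical. Because RNA came from bulk cultures, fewer cells of a kind and less RNA per cell cannot be told apart. All 13 NK and T cell markers listed had a mean over 1 CPM across the libraries of all lines. GNLY and TYROBP did so through SNK-10 alone, at 73.4 to 90.3 and 23.9 to 26.7 CPM. Both were under 1 CPM in every SNT-8 and SNT-16 library. Of 6 B and plasma cell markers 1 had such a mean, PAX5. So did 3 of 5 myeloid and 3 of 6 epithelial and stromal markers. Of the NK and T cell markers, 6, 5 and 7 were lower and 3, 2 and 2 higher after icaritin in SNT-8, SNK-10 and SNT-16. Of all tested genes, 25%, 24% and 20.8% were lower and 24%, 24.4% and 21.2% higher. The summed level of these markers was lower in each line, at 3655 to 4012, 2558 to 2667 and 4128 to 4333 CPM after icaritin. In DMSO it was 4176 to 4415, 2843 to 2947 and 4619 to 4748. The B and plasma cell markers MS4A1 and SDC1 and the myeloid marker MPO were at or near 0. The summed epithelial and stromal level was low and higher after icaritin in each line. It was 7.09 to 10.1 CPM in DMSO and 16.6 to 18.5 after icaritin in SNT-8. In SNK-10 it was 8.98 to 11.4 and 13.8 to 16.5, and in SNT-16 6.63 to 8.77 and 13.03 to 15.8. COL1A1 was up by 1.76 ± 0.17, 1.56 ± 0.19 and 1.33 ± 0.18 in SNT-8, SNK-10 and SNT-16. In SNK-10 it went from 2.105, 3.254 and 2.325 to 8.123, 7.528 and 7.016 CPM. The rise was not shared by all listed markers. Of the 5 tested, 2, 1 and 1 were higher past the threshold in SNT-8, SNK-10 and SNT-16, and 0 were lower. Their median log2 fold changes were 0.65, -0.14 and 0.32. The part of these markers in the results was not tested. The mitochondrial gene RNR2 took a larger share of counts in each line after icaritin. This share was not tested as a source of the differences below. Leaving both mitochondrial ribosomal RNA genes out of the library sizes gave 21, 19 and 21 genes lower in SNT-8, SNK-10 and SNT-16. These were the counts found with them. Between lines, ACSL1 in SNK-10 minus SNT-16 (adjusted p = 0.062) and INSIG1 in SNT-8 minus SNT-16 (adjusted p = 0.0564) no longer passed. By the chi-square of counts between replicates, library SNT-8 icaritin 2 stood furthest from its group.

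Most of the genes fell after icaritin in each line. In SNT-8, 21 of the 32 tested genes were lower past the threshold and 4 were higher, where 49.1% of all tested genes passed in either direction, 25% lower and 24% higher. In SNK-10, 19 were lower and 7 were higher, where 48.4% of all tested genes passed, 24% lower and 24.4% higher. In SNT-16, 21 were lower and 4 were higher, where 42% passed, 20.8% lower and 21.2% higher. The median log2 fold change of the 32 genes was -0.56 in SNT-8, -0.31 in SNK-10 and -0.32 in SNT-16, beside medians of 0.02, 0.01 and 0.02 over all tested genes. On the average of the 3 lines, 21 were lower and 6 higher, where 61.7% of all tested genes passed, 30% lower and 31.7% higher. The medians include ACSS2 and ME1, which passed the filter on low counts through SNK-10 alone. NPC1L1, the intestinal sterol uptake protein, had too few counts to be tested, with 10 in all libraries together.

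Across the lines, 17 of the 32 genes were lower past the threshold in all 3 lines, against 14.3% of all tested genes, and 2 were higher in all 3, against 13%. The 17 were ACAT2, PMVK, MVD, IDI1 and FDPS of the early steps, FDFT1, SQLE, LSS, TM7SF2, NSDHL, EBP and DHCR7 of the late steps, SCAP, and ACLY, ACACA, FASN and ACSL4 of the fatty acid genes. ACACB and ACSL1 were the 2 higher. HMGCS1, CYP51A1 and STARD4 passed the threshold in opposite directions in different lines. Another 8 genes passed in 1 or 2 lines, and SREBF1 and ACSS2 passed in none.

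**Figure D1:**
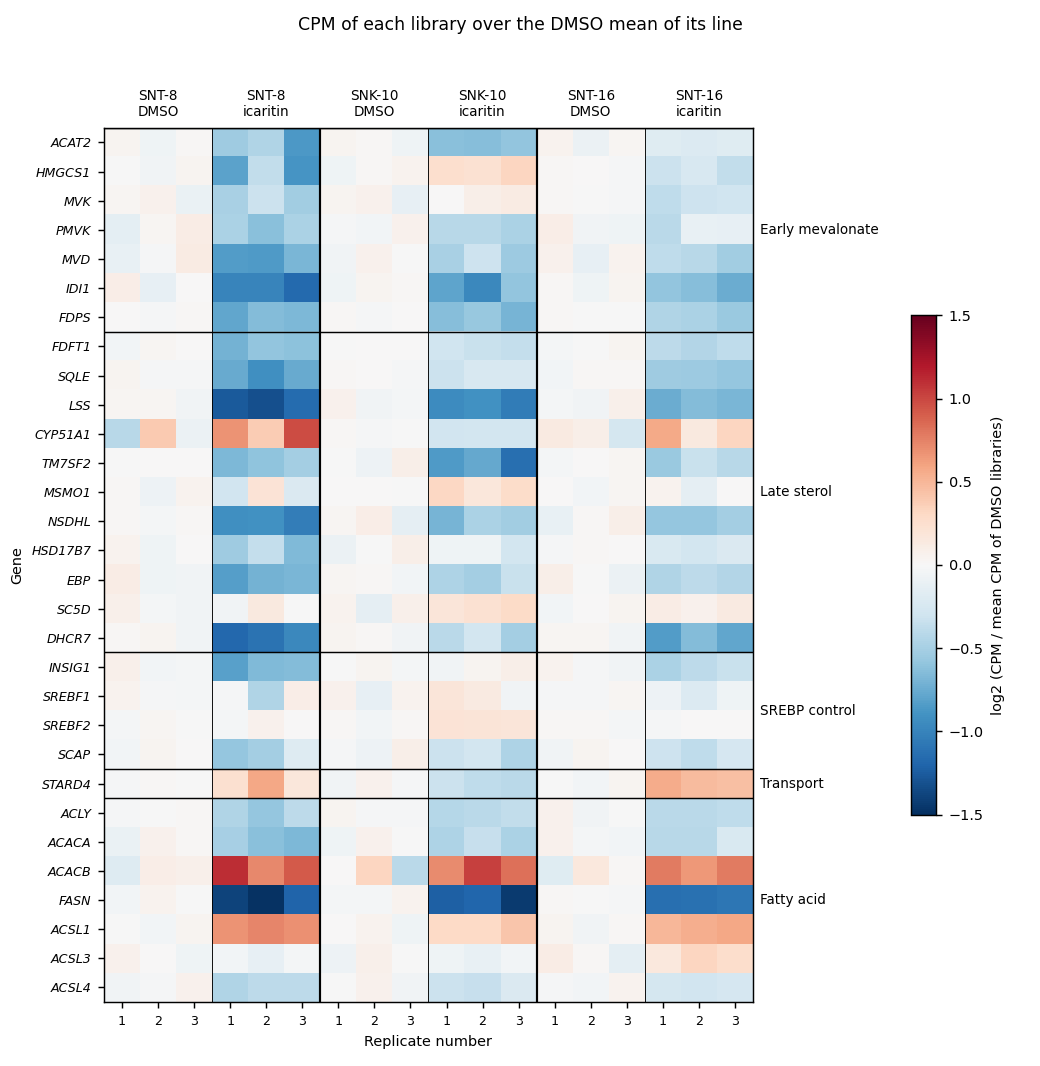
Colours give the log2 of each library's CPM over the mean of the DMSO libraries of its line, for 30 genes in rows by role and 18 libraries in columns; ACSS2, ME1 and NPC1L1 are left out because some libraries hold almost no counts of them. Blue fills most icaritin columns, with ACACB and ACSL1 red in all 3 lines and HMGCS1 and STARD4 of opposite colours in SNK-10 and the SNT lines.

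Summed over each role, the fall was of like size for early and late sterol steps within a line. The 7 early genes together went from 1016 ± 28.2 to 618 ± 55.4 CPM in SNT-8 (mean ± SD, n = 3), from 677 ± 8.11 to 515 ± 6.23 in SNK-10, and from 758 ± 16.5 to 573 ± 15.3 in SNT-16. This left 60.8%, 76.1% and 75.7% of the DMSO level. The 11 late genes kept 64.7% of it in SNT-8, 81.8% in SNK-10 and 76.7% in SNT-16. The 9 fatty acid genes kept 66.9%, 67.3% and 73.7%. The 4 SREBP genes kept 88.7%, 107% and 91.6%, and sterol transport, which is almost all STARD4, stood at 126%, 77.6% and 141%. The sums weigh abundant genes most.

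The upstream sequence of the genes was searched for the letters that SREBPs and their partners are known to bind. RefSeq gave the 250 bases before the start site of 29 of the 33 genes (build GRCh38.p14). The letters searched, on both strands, were TCACNCCAC, a form of the sterol response element bound by SREBPs, CCAAT, bound by NF-Y, GGGCGG, bound by Sp1, and CACGTG, an E-box. CCAAT stood in 19 of the 29, against 33% of 27305 upstream windows of that length in the table. It stood in 4 of 6 early, 8 of 9 late, 2 of 4 SREBP and 3 of 8 fatty acid genes. GGGCGG stood in 26 of 29, against 42.3%, and CACGTG in 3, against 6.49%. TCACNCCAC stood in 1, SREBF2, against 0.875%. No match of one motif overlapped a match of another. The genes were chosen for a shared pathway, and 26 of the 29 windows had a ratio of observed to expected CpG over 0.6, against 47.4% of all. Base composition thus also differed from that of all windows, and its part in the motif counts was not tested. Of the genes lower in all 3 lines, 8 of 13 with a window held CCAAT, of the genes higher in all 3 lines 0 of 2 did, of those that passed in opposite directions 2 of 3, of those that passed in 1 or 2 lines 7 of 8, and of those that passed in none 1 of 2. A match of letters is a description and no measure of binding. The sequences of LSS and SREBF2 show a gene with a fall in every line and the gene with the response element, HMGCS1 and STARD4 are genes whose direction differed between lines, and CYP51A1 and ACSS2 are genes of far higher level in SNK-10 than in the SNT lines. Each is 5′ to 3′ on the gene's strand, ends at the base before the start site, and has the matched motifs in capitals.
LSS (chr21:46228775-46229024, minus strand): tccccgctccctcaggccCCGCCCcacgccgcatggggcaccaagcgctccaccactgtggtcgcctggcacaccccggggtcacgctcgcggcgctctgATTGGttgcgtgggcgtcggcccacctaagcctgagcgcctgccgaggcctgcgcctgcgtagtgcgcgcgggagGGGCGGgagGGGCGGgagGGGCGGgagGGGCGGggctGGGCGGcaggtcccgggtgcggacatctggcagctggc
SREBF2 (chr22:41832855-41833104, plus strand): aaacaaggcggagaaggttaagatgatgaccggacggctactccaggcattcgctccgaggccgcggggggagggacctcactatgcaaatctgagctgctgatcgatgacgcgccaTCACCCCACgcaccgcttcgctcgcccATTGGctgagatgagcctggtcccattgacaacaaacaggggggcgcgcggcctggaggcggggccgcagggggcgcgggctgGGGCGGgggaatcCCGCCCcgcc
HMGCS1 (chr5:43313413-43313662, minus strand): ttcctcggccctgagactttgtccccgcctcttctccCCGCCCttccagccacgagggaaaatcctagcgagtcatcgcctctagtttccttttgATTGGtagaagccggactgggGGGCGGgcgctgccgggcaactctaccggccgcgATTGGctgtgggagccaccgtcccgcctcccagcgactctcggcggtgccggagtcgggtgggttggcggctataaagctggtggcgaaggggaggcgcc
STARD4 (chr5:111512536-111512785, minus strand): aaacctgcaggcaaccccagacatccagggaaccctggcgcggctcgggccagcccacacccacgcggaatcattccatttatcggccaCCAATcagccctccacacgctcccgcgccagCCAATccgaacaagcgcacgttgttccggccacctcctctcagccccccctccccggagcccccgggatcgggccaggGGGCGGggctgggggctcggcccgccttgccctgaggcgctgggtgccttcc
CYP51A1 (chr7:92134478-92134727, minus strand): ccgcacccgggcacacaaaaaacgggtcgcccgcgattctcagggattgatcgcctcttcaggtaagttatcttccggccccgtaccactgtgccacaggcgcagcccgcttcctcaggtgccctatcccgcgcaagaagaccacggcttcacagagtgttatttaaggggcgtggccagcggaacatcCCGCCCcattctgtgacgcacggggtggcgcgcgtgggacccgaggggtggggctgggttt
ACSS2 (chr20:34874739-34874988, plus strand): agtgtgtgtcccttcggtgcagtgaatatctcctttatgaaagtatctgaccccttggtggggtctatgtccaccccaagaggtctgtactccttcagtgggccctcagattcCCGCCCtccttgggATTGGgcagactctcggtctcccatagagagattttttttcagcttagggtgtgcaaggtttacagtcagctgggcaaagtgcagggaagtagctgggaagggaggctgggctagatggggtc
LSS holds a CCAAT on the strand opposite to the gene, printed as ATTGG, and a row of closely spaced GC boxes near its start. HMGCS1 and STARD4 each hold a pair of CCAAT matches with 1 or 2 GC boxes. SREBF2 holds its response element 133 bases and its CCAAT 106 bases before the start. CYP51A1 holds no CCAAT and 1 GC box, and ACSS2 holds 1 of each in a window with a CpG ratio of 0.17, against 0.91 for CYP51A1.

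All 7 early mevalonate genes fell in SNT-8 and in SNT-16, and 5 fell in SNK-10. Of all tested genes, 25%, 20.8% and 24% were lower in SNT-8, SNT-16 and SNK-10. The medians of the 7 genes were -0.66 in SNT-8, -0.44 in SNK-10 and -0.33 in SNT-16. IDI1, the isomerase that interconverts the isoprenoid building blocks, had the largest fall of them. Its DMSO libraries stood at 189.7, 163 and 178 CPM in SNT-8, and its icaritin libraries at 89.1, 88.9 and 78.8. In SNK-10 it went from 121, 131 and 128 to 73, 65.1 and 83.8 CPM, and in SNT-16 from 141, 134 and 144 to 92.5, 89.6 and 83.3. No icaritin library reached a DMSO library of its line. Such separation was common, here and for the genes below. Of all tested genes, 27.6% in SNT-8, 27.4% in SNK-10 and 26.1% in SNT-16 had every icaritin library below every DMSO library. In 26.5%, 27.8% and 26.6%, every icaritin library was above. The log2 fold changes of IDI1 were -1.05 ± 0.07 (adjusted p = 1.71e-14), -0.78 ± 0.07 (adjusted p = 6.22e-11) and -0.66 ± 0.07 (adjusted p = 1.24e-09).

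FDPS, which makes farnesyl diphosphate at the branch to sterols and prenyl groups, was the gene of highest level per length among the 33 in DMSO in all 3 lines, at 179 ± 2.54, 155 ± 1.25 and 155 ± 1.44 FPKM (SD, n = 3). In CPM, it went from 251, 246 and 253 to 145, 159 and 157 in SNT-8. It went from 220.3, 216 and 219 to 139.8, 147 and 135 CPM in SNK-10. In SNT-16 it went from 211, 208 and 208 to 153, 151 and 142 CPM. The groups were apart in each line, with log2 fold changes of -0.70 ± 0.05, -0.64 ± 0.05 and -0.50 ± 0.05 and adjusted p from 6e-16 to 1.72e-11. A pseudogene copy, FDPSP2, held a mean of 14.7 CPM beside 187 CPM of FDPS, and reads shared by the copies are not told apart here. The antisense gene RUSC1-AS1, which overlaps FDPS, had a mean of 30.8 CPM and an average change of -0.69 (adjusted p = 6.19e-17), and the sources used here do not say whether counting used strand.

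MVD, PMVK and ACAT2 also fell in each line. MVD, the decarboxylase that ends the mevalonate steps, changed by -0.79 ± 0.08, -0.44 ± 0.07 and -0.43 ± 0.08 in SNT-8, SNK-10 and SNT-16. PMVK, which adds the second phosphate to mevalonate, changed by -0.53 ± 0.07, -0.43 ± 0.08 and -0.21 ± 0.07. ACAT2, the cytosolic thiolase that makes acetoacetyl-CoA, changed by -0.60 ± 0.07, -0.62 ± 0.07 and -0.19 ± 0.07. The SNT-16 changes of ACAT2 (adjusted p = 0.0185) and PMVK (adjusted p = 0.0194) were each lost in 4 of 28 alternatives. ACAT2 overlaps TCP1, a chaperonin gene of 394 CPM on average with an average change of -0.64, which cannot be told apart where reads lie in the shared part.

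HMGCS1, the synthase that makes HMG-CoA, and MVK, the kinase of mevalonate, differed between lines. HMGCS1 stood at 330.3, 319.7 and 341 CPM in SNT-8 given DMSO and at 189.7, 256 and 179 after icaritin. It stood at 197, 194 and 191 and then 155, 164 and 149.8 CPM in SNT-16. In SNK-10 it stood at 109, 116 and 119 CPM in DMSO and 136, 134 and 143 after icaritin. Its libraries moved down without overlap in both SNT lines and up without overlap in SNK-10. The changes were -0.66 ± 0.09 (adjusted p = 2.83e-05), -0.31 ± 0.10 (adjusted p = 0.0181) and 0.27 ± 0.10 (adjusted p = 0.0445) in SNT-8, SNT-16 and SNK-10. The rise in SNK-10 was lost in 14 of 28 alternatives, with adjusted p between 5.64e-06 and 0.138 over all of them, and the fall in SNT-16 in 3. The response of SNK-10 was above that of SNT-8 by 0.94 ± 0.14 (adjusted p = 0.000531) and above that of SNT-16 by 0.58 ± 0.14 (adjusted p = 0.0151).

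MVK changed by -0.44 ± 0.09 in SNT-8 and -0.33 ± 0.08 in SNT-16, and by 0.07 ± 0.08 in SNK-10 (adjusted p = 0.521, 95% interval -0.11 to 0.25). Its CPM in SNK-10 were 26.7, 27.2 and 23.9 in DMSO and 25.99, 27.5 and 28.2 after icaritin, which overlap. MVK shares a stretch with MMAB, a gene of cobalamin metabolism of like level, 27.0 CPM against 24.5 on average, whose average change was -0.28.

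The 11 late sterol genes had 8 falls in each line, with 1 rise in SNT-8, 2 in SNK-10 and 0 in SNT-16. Of all tested genes, 25%, 24% and 20.8% were lower and 24%, 24.4% and 21.2% higher in SNT-8, SNK-10 and SNT-16. LSS, which closes squalene epoxide into lanosterol, fell most of the 11 in SNT-8 and SNK-10. Its DMSO libraries held 59.9, 60.05 and 56.6 CPM in SNT-8 and its icaritin libraries 24.6, 23.7 and 26.5. In SNK-10 it went from 76.2, 70.2 and 71.3 to 37.7, 38.7 and 35.2 CPM and in SNT-16 from 45.5, 44.7 and 48.9 to 27.8, 29.6 and 28.7. Each icaritin library was below each DMSO library. The changes were -1.24 ± 0.07, -0.96 ± 0.07 and -0.69 ± 0.07, with adjusted p of 8.95e-18, 1.71e-15 and 1.34e-10.

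DHCR7, the reductase that makes cholesterol from its last precursor, fell least in SNK-10. It stood at 105, 107 and 100.2 CPM in DMSO and 46.2, 48.1 and 53.2 after icaritin in SNT-8. In SNT-16 it stood at 95.9, 95.7 and 90.5 and then 52.4, 59.9 and 54.7 CPM. In SNK-10 it stood at 87.2, 85.8 and 82.1 and then 64.4, 70.01 and 59.8 CPM. All 3 lines had separate groups, and the changes were -1.08 ± 0.06, -0.76 ± 0.06 and -0.39 ± 0.06. SNK-10 responded less than SNT-8 by 0.69 ± 0.09 (adjusted p = 9.41e-07) and less than SNT-16 by 0.36 ± 0.09 (adjusted p = 0.00439).

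SQLE, the epoxidase that is a control point after squalene, was ordered like DHCR7, with changes of -0.81 ± 0.05 in SNT-8, -0.55 ± 0.05 in SNT-16 and -0.27 ± 0.05 in SNK-10. Its level in DMSO was highest in SNK-10, at 161, 160.2 and 158 CPM, against 110.4, 106 and 106 in SNT-8 and 88.1, 92.04 and 92.2 in SNT-16. FDFT1, squalene synthase and the first enzyme committed to sterols, changed by -0.64 ± 0.04, -0.33 ± 0.05 and -0.40 ± 0.04 in SNT-8, SNK-10 and SNT-16. NSDHL, a dehydrogenase of the demethylating steps, changed by -0.96 ± 0.08, -0.56 ± 0.08 and -0.56 ± 0.08. EBP, the sterol isomerase, changed by -0.74 ± 0.06, -0.43 ± 0.06 and -0.43 ± 0.06. For FDFT1, NSDHL and EBP the fall in SNT-8 was larger than in SNK-10 past the threshold, by 0.31, 0.40 and 0.30 on the log2 scale, and SNK-10 against SNT-16 did not pass (adjusted p = 0.515, 1.0 and 0.984). The EBP difference was lost in 6 of 27 alternatives, among them total counts (adjusted p = 0.0741) and the fits without SNT-8 DMSO 1, SNT-8 icaritin 1 or SNK-10 icaritin 3 (adjusted p = 0.0768, 0.0565 and 0.0624). The NSDHL difference was lost in 3, with total counts (adjusted p = 0.0597) and without SNK-10 DMSO 3 or SNK-10 icaritin 2 (adjusted p = 0.066 and 0.0557).

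TM7SF2, a sterol reductase, had its lowest value in SNK-10, at -0.90 ± 0.12, beside -0.59 ± 0.10 in SNT-8 and -0.43 ± 0.08 in SNT-16. Its CPM in SNK-10 went from 15.3, 14.6 and 16.3 to 8.56, 9.03 and 7.02. The response of SNK-10 differed from that of SNT-16 by -0.47 ± 0.14 (adjusted p = 0.0233), lost in 6 of 27 alternatives with adjusted p up to 0.0959, and from that of SNT-8 by -0.31 ± 0.15, which did not pass (adjusted p = 0.204). HSD17B7, a ketoreductase of the demethylating steps, changed by -0.51 ± 0.07 and -0.24 ± 0.07 in the SNT lines and by -0.13 ± 0.08 in SNK-10 (adjusted p = 0.19). Its pseudogene HSD17B7P2 held 5.88 CPM on average beside 43.4 CPM.

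MSMO1, a methylsterol oxidase, and SC5D, a sterol desaturase, did not fall past the threshold in any line. MSMO1 had 76.7, 76.4 and 75.9 CPM in DMSO and 94.5, 85.6 and 92.1 after icaritin in SNK-10, a change of 0.25 ± 0.09 (adjusted p = 0.0239). In SNT-8 its icaritin libraries held 72.95, 103 and 76.8 CPM against 90.5, 84.8 and 92.3 in DMSO, so library 2 alone was above them. The change there was -0.08 ± 0.09 (adjusted p = 0.448), and without SNT-8 icaritin 2 it was -0.25 (adjusted p = 0.000594), which adds a fall. SC5D changed by 0.23 ± 0.07 in SNK-10 (adjusted p = 0.00573) and by 0.03 ± 0.07 and 0.10 ± 0.07 in SNT-8 and SNT-16. Without SNK-10 DMSO 2, the rises of HMGCS1, MSMO1 and SC5D in SNK-10 did not pass (adjusted p = 0.0811, 0.0628 and 0.0736), and 4 genes rose there in place of 7.

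CYP51A1, the demethylase that acts on lanosterol, was the sterol enzyme with the widest range between lines. In SNK-10 its DMSO libraries held 139, 136 and 137 CPM, and its icaritin libraries 113, 114 and 114. In SNT-8 they held 2.73, 4.76 and 3.404 and 5.79, 4.71 and 7.18 CPM, and in SNT-16 5.199, 5.05 and 3.96 and 7.02, 5.23 and 5.92. The SNK-10 level in DMSO was 37.9 times that of SNT-8 (95% interval 31.3 to 46.3) and 29.1 times that of SNT-16 (24.6 to 34.6), where the intervals cover counting error only. The groups in SNT-8 overlapped by a single pair of libraries, with a change of 0.70 ± 0.18 (adjusted p = 0.00125). In SNK-10 the change was -0.28 ± 0.06 (adjusted p = 0.000265) and in SNT-16 0.36 ± 0.17 (adjusted p = 0.0856). The SNK-10 fall did not pass with limma on log2(FPKM + 0.1) (adjusted p = 0.145).

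**Figure D2:**
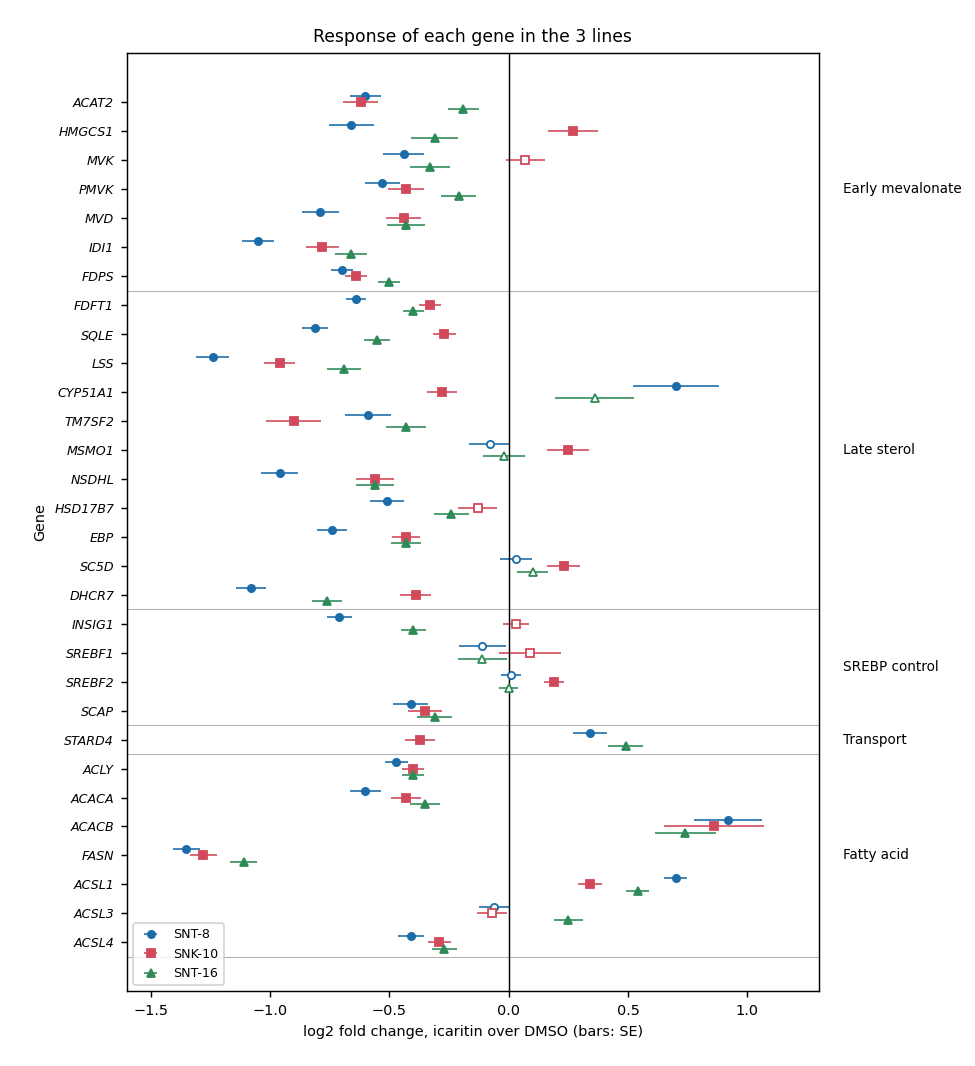
Points give the log2 fold change of icaritin over DMSO in each line with its SE as a bar, for 30 genes in order of role; filled points passed the threshold. Most points lie left of 0, and the SNK-10 squares lie to the right of the SNT-8 circles for most sterol enzymes, DHCR7 at -0.39 against -1.08.

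Of the 4 SREBP genes, SCAP, the escort of SREBP proteins, fell in all 3 lines by like amounts, at -0.41 ± 0.07, -0.35 ± 0.07 and -0.31 ± 0.07. INSIG1, the protein that retains SCAP, was at 188, 173 and 174 CPM in DMSO and 102, 113 and 113 after icaritin in SNT-8. It was at 159, 152 and 148 and then 109.6, 116 and 121 CPM in SNT-16. In SNK-10 it was at 113, 117 and 111 and then 109.7, 117 and 120.4 CPM. The groups were apart in the SNT lines and overlapped in SNK-10. The changes were -0.71 ± 0.05 (adjusted p = 2.97e-14), -0.40 ± 0.05 (adjusted p = 5.96e-08) and 0.03 ± 0.06 (adjusted p = 0.72). The SNK-10 response lay above that of SNT-8 by 0.73 ± 0.08 (adjusted p = 1.02e-08) and above that of SNT-16 by 0.43 ± 0.08 (adjusted p = 0.000115).

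SREBF2, which encodes the SREBP that acts most on sterol genes, did not pass the threshold in the SNT lines. Its SNT-8 libraries held 422, 439 and 427 CPM in DMSO and 420.1, 448 and 431 after icaritin, a change of 0.01 ± 0.04 with a 95% interval of -0.08 to 0.10. In SNT-16 the change was 0.00 ± 0.04, with an interval of -0.09 to 0.09. In SNK-10 it went from 343, 332 and 345 to 392, 389.8 and 384 CPM, a change of 0.19 ± 0.04 (adjusted p = 0.000152). SREBF1, which encodes the SREBPs that act most on fatty acid genes, did not pass after icaritin in any line, and its level was lowest in SNK-10. Its DMSO libraries held 136, 130.4 and 129 CPM in SNT-8, 114, 114 and 118 in SNT-16 and 43.8, 38.5 and 43.5 in SNK-10. RAI1, which overlaps SREBF1, had a like order, at 71.6 ± 2.91, 68.1 ± 2.03 and 30.9 ± 1.13 CPM (SD, n = 3) in SNT-8, SNT-16 and SNK-10 given DMSO, and reads of the shared part cannot be told apart. The 95% intervals of the response of SREBF1 were -0.32 to 0.11, -0.34 to 0.11 and -0.19 to 0.38. SREBP activity rests on cleavage of the protein, which RNA levels do not measure.

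STARD4, a carrier that moves sterol between membranes, rose in the SNT lines and fell in SNK-10. It was at 51, 52.1 and 51.3 CPM in DMSO and 60.7, 76.8 and 57.7 after icaritin in SNT-8. It was at 48.3, 47.3 and 49.9 and then 71.3, 67.1 and 66.4 CPM in SNT-16. In SNK-10 it was at 135, 146 and 139 and then 112, 108 and 106 CPM, above both other lines before and after. No groups overlapped within a line. The changes were 0.34 ± 0.07 (adjusted p = 0.000146), 0.49 ± 0.07 (adjusted p = 4.17e-07) and -0.37 ± 0.06 (adjusted p = 5.49e-06). Without SNT-8 icaritin 2 the change in SNT-8 was 0.20 (adjusted p = 0.0084). The SNK-10 response minus that of SNT-8 was -0.70 ± 0.10 (adjusted p = 2.11e-06), and minus that of SNT-16 it was -0.86 ± 0.10 (adjusted p = 3.25e-08). STARD4-AS1 overlaps the gene at a mean of 0.966 CPM.

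Of the 9 fatty acid genes, 4 fell in every line, against 14.3% of all tested genes. In SNT-8, SNK-10 and SNT-16, 2, 3 and 3 of the 9 were higher, beside 24%, 24.4% and 21.2% of all tested genes. FASN, the synthase that builds palmitate, had the largest fall of all tested members in each line. Its SNT-8 libraries held 614, 657 and 630.1 CPM in DMSO and 242, 227 and 276 after icaritin. In SNK-10 it went from 633, 629.7 and 669.7 to 276, 283 and 238 CPM, and in SNT-16 from 577, 566 and 561 to 259, 262 and 267. Icaritin left 39.2%, 41.3% and 46.2% of the DMSO mean, with no overlap. The changes were -1.35 ± 0.06, -1.28 ± 0.06 and -1.11 ± 0.06, and the average was -1.25 ± 0.03 (adjusted p = 5.08e-26). No pair of lines differed in the response of FASN past the threshold: SNK-10 minus SNT-8 was 0.07 (95% interval -0.10 to 0.25), SNK-10 minus SNT-16 -0.16 (-0.34 to 0.01) and SNT-8 minus SNT-16 -0.24 (-0.41 to -0.06). The intervals are not adjusted for the number of genes. SNT-8 minus SNT-16 passed in 2 of 27 alternatives, and the test over 3 lines passed in 3 of 27.

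ACLY, which makes cytosolic acetyl-CoA from citrate, changed by -0.47 ± 0.05, -0.40 ± 0.05 and -0.40 ± 0.05, and ACACA, the cytosolic acetyl-CoA carboxylase, by -0.60 ± 0.06, -0.43 ± 0.06 and -0.35 ± 0.06. ACACB, the carboxylase of the mitochondrial surface, whose malonyl-CoA restrains fatty acid import, rose instead. It stood at 5.57, 6.79 and 6.71 CPM in DMSO and 13.7, 10.4 and 11.99 after icaritin in SNT-8. In SNK-10 it stood at 2.53, 3.15 and 1.903 and 4.12, 5.16 and 4.495, and in SNT-16 at 8.46, 10.7 and 9.704 and 16.6, 15.1 and 16.5 CPM. The icaritin libraries lay above all DMSO libraries in each line, at a level per length of 0.67 ± 0.0781 FPKM against 8.52 ± 0.549 for ACACA in SNT-8 given DMSO (SD, n = 3). The changes were 0.92 ± 0.14, 0.86 ± 0.21 and 0.74 ± 0.13, with adjusted p of 9.58e-07, 0.000793 and 7.64e-06.

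The acyl-CoA synthetases, which activate fatty acids, went different ways. ACSL1 rose in each line, from 127, 124 and 132 to 204, 212 and 205 CPM in SNT-8, from 112, 115 and 107 to 137, 138 and 149 in SNK-10 and from 126, 118 and 125 to 174, 179.7 and 184 in SNT-16, changes of 0.70 ± 0.05, 0.34 ± 0.05 and 0.54 ± 0.05. Its rise was smaller in SNK-10 than in SNT-8, a difference of -0.36 ± 0.07 (adjusted p = 0.000395). ACSL4, which prefers arachidonic acid, fell by like amounts, at -0.41 ± 0.05, -0.29 ± 0.05 and -0.27 ± 0.05. ACSL3 rose in SNT-16 by 0.25 ± 0.06 (adjusted p = 0.000785) and stood at -0.06 ± 0.06 and -0.07 ± 0.06 in SNT-8 and SNK-10 (adjusted p = 0.447 and 0.381).

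**Figure D3:**
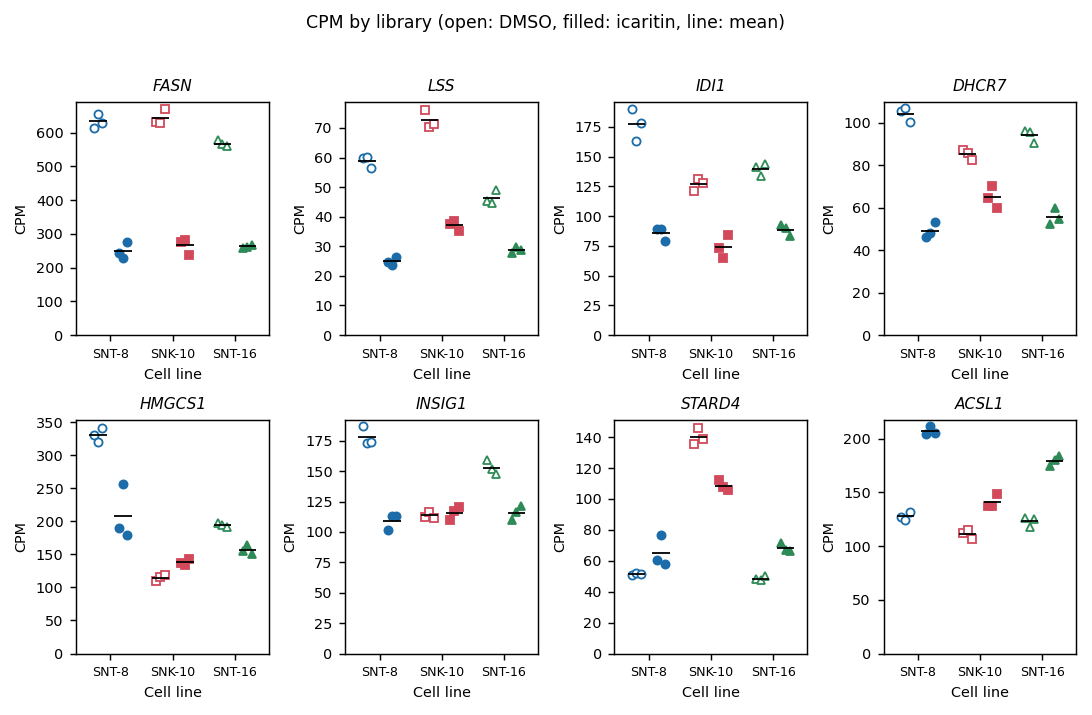
CPM of FASN, LSS, IDI1, DHCR7, HMGCS1, INSIG1, STARD4 and ACSL1 in every library, by line (x axis), on a linear axis from 0; open symbols are DMSO, filled are icaritin, and the bar is the mean of 3 libraries. FASN, LSS, IDI1 and DHCR7 fall in all lines, while HMGCS1 and STARD4 move opposite ways in SNK-10 and the SNT lines and INSIG1 stays level in SNK-10.

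ACSS2 and ME1 were almost confined to SNK-10. ACSS2, which makes acetyl-CoA from acetate, held 38.8, 32.2 and 33.9 CPM in DMSO and 33.03, 33.4 and 34.1 after icaritin in SNK-10. Its 3 DMSO libraries of SNT-8 held 6 expected counts together, after rounding, and those of SNT-16 held 7. The level in SNK-10 was 174 times that of SNT-8 (95% interval 79.4 to 474) and 150 times that of SNT-16 (72.5 to 374). ME1, the malic enzyme that supplies NADPH, held 9.05, 8.71 and 7.19 CPM in SNK-10 in DMSO and 13, 12.8 and 13.7 after icaritin, a change of 0.66 ± 0.16 (adjusted p = 0.000922). It had 0 counts in the DMSO libraries of SNT-8, so SNK-10 was at least 82.5-fold higher, taken against 3 counts over the group. In SNT-16 it had 5 counts in DMSO, and the ratio was 49.9 (21.1 to 155). The low counts of both genes in the SNT lines allow no reading of their response there.

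Neighbouring genes were read to see whether the difference is shared along the chromosome. Next to ACSS2, GGT7 had 0.135 ± 0.0588, 7.06 ± 1.24 and 0.166 ± 0.0555 CPM in DMSO (SD, n = 3) in SNT-8, SNK-10 and SNT-16, and GSS had 19.4 ± 1.77, 85.1 ± 2.54 and 25.3 ± 1.01. TRPC4AP, beyond GSS, had 116 ± 3.21, 113 ± 1.33 and 145 ± 2.21. HMGB3P1, beyond GGT7, had 4.44 ± 0.513, 4.18 ± 0.714 and 3.47 ± 0.0999. GGT7 and GSS thus stood higher in SNK-10 by more than their SDs, and TRPC4AP and HMGB3P1 did not. GGT7 passed the filter on low counts through SNK-10 alone, so its higher level there was fixed by that filter. Only tested genes were read as neighbours, here and below, and nearer genes that failed the filter were passed over. Near CYP51A1, AKAP9 had 85.7 ± 4.73, 86.5 ± 4.48 and 79.5 ± 4.24 CPM and KRIT1 53.0 ± 0.601, 53.8 ± 1.84 and 54.3 ± 5.13, while ANKIB1 had 48.8 ± 1.29, 69.0 ± 4.52 and 49.9 ± 2.64 and so stood higher in SNK-10. MTERF1, also near CYP51A1, had 15.3 ± 1.67, 12.7 ± 0.919 and 16.0 ± 1.01 and so stood lower in SNK-10. Near ME1, PGM3 had 29.1 ± 0.662, 30.9 ± 1.27 and 28.2 ± 0.781. CYB5R4 had 31.1 ± 1.5, 37.7 ± 3.03 and 32.5 ± 3.82, highest in SNK-10. CEP162 had 10.9 ± 1.25, 8.77 ± 1.58 and 10.8 ± 0.466, lowest in SNK-10. RWDD2A had 4.67 ± 0.459, 4.42 ± 1.17 and 6.44 ± 0.617. Differences between neighbours were not tested.

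**Figure D4:**
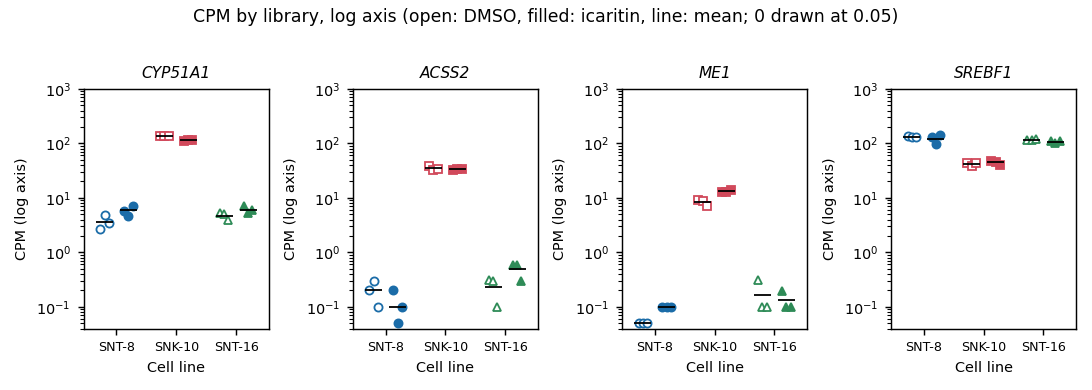
CPM of CYP51A1, ACSS2, ME1 and SREBF1 in every library, by line (x axis), on a log axis; open symbols are DMSO, filled are icaritin, the bar is the mean, and libraries with 0 counts are drawn at 0.05. CYP51A1, ACSS2 and ME1 stand well above the SNT lines in SNK-10, and SREBF1 stands below them.

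The DMSO level of many other members also differed between SNK-10 and the SNT lines. ACSS2 and ME1 passed the filter through SNK-10 alone and are therefore among the higher by construction in both counts that follow. Of the 32 genes, 9 were higher and 14 were lower in SNK-10 than in SNT-8, where 57.6% of all tested genes differed (29.9% higher, 27.8% lower). Against SNT-16, 13 were higher and 12 were lower in SNK-10, where 57.8% differed (30.1% higher, 27.7% lower). Between SNT-8 and SNT-16, 14 were higher in SNT-8 and 2 were lower, where 13.2% differed (7.34% higher, 5.89% lower). On the log2 scale, SNK-10 minus SNT-8 in DMSO was -1.53 ± 0.10 for HMGCS1 and -1.65 ± 0.11 for SREBF1. It was 1.44 ± 0.07 for STARD4 and 0.83 ± 0.05 for ACSL4. The shares against SNT-8 and SNT-16 use the same SNK-10 libraries.

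The response itself differed between the lines for 18 of the 32 genes in the test over all 3 lines, where 14.3% of all tested genes did. These were 5 of the 7 early genes, 8 of the 11 late genes, INSIG1 and SREBF2, STARD4, and 2 of the 9 fatty acid genes. Between SNK-10 and SNT-8, 14 genes differed, 11 of them with a higher value in SNK-10, where 10.8% of all tested genes differed (6.69% higher, 4.08% lower). Scaling by total counts changed the split over all genes from 963 higher and 588 lower to 560 and 1020, and left 9 of the members called. Between SNK-10 and SNT-16, 12 genes differed, 6 each way, where 12.5% differed (6.74% higher, 5.77% lower), and the split over all genes went from 971 and 830 to 681 and 1301 with total counts. Between SNT-8 and SNT-16, ACAT2, LSS and INSIG1 differed, all lower in SNT-8, where 0.438% of all tested genes did (0.264% lower). The LSS difference was -0.54 ± 0.10 (adjusted p = 0.00397), lost with limma on either FPKM scale (adjusted p = 0.0635 and 0.0618). ACAT2 (adjusted p = 0.0322) was lost in 10 of 27 alternatives and INSIG1 (adjusted p = 0.049) in 21. Of the 14 differences between SNK-10 and SNT-8, 9 passed under every alternative, the others being MVD, NSDHL, EBP, HSD17B7 and SREBF2. Of the 12 between SNK-10 and SNT-16, 5 did, the others being MVK, CYP51A1, TM7SF2, DHCR7, SREBF2, ACSL1 and ACSL3.

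Leaving out SNT-8 icaritin 2 changed several of these calls. HMGCS1 in SNT-8 minus SNT-16 went from -0.35 ± 0.14 (adjusted p = 0.266) to -0.53 (adjusted p = 1.18e-06). FDFT1, IDI1 and EBP, at -0.24, -0.39 and -0.31 with it, passed without it at -0.26, -0.42 and -0.33 (adjusted p = 0.0187, 0.0403 and 0.0489). MSMO1 went from 0.33 ± 0.12 (adjusted p = 0.0932) to 0.50 (adjusted p = 1.85e-05) in SNK-10 minus SNT-8, passed in SNK-10 minus SNT-16 at 0.27 (adjusted p = 0.0119), and passed in the test over 3 lines (adjusted p = 3.78e-05). LSS passed in SNK-10 minus SNT-16 at -0.27 (adjusted p = 0.0389), and FDPS and TM7SF2 in the test over 3 lines (adjusted p = 0.0215 and 0.0443). MVD no longer passed in SNK-10 minus SNT-8 (0.31, adjusted p = 0.0532) or over 3 lines (adjusted p = 0.0542).

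Other genes of the same processes, outside the 33, were read from lists for comparison, beside the 24% higher and 25% lower of all tested genes in SNT-8, 24.4% and 24% in SNK-10, and 21.2% and 20.8% in SNT-16. Of 16 tested genes of further sterol and isoprenoid steps, 10 were lower and 2 higher in SNT-8, 8 and 2 in SNK-10, and 8 and 1 in SNT-16. NUS1, a subunit of the enzyme that makes dolichol precursors, changed by -0.41 ± 0.06, -0.58 ± 0.06 and -0.25 ± 0.06. ICMT, which methylates prenylated proteins, went the other way, at 0.23 ± 0.05, 0.44 ± 0.05 and 0.32 ± 0.05. Of 16 genes around SREBP control, 5 were higher and 4 lower in SNT-8, 3 and 4 in SNK-10, and 6 and 3 in SNT-16.

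Of 14 tested genes of sterol movement outside the 33, 5 were higher and 4 lower in SNT-8, 6 and 3 in SNK-10, and 5 and 3 in SNT-16. NPC1, which exports cholesterol from lysosomes, changed by 0.52 ± 0.06, 0.62 ± 0.06 and 0.60 ± 0.06, and the lipoprotein receptor SCARB1 by -0.49 ± 0.06, -0.30 ± 0.07 and -0.43 ± 0.06. Of 5 tested LXR genes, 2 were lower and 1 was higher in each line, MYLIP being the higher at 0.50 ± 0.10 on average. Of 13 tested genes of further fatty acid synthesis, 6 were lower and 1 higher in SNT-8, 4 and 2 in SNK-10, and 6 and 2 in SNT-16. SLC25A1, which exports citrate from mitochondria, averaged -0.48 ± 0.05, and ACSL6 averaged -1.05 ± 0.10.

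Of 17 tested genes of fatty acid oxidation, 2 were higher and 5 lower in SNT-8, 3 and 3 in SNK-10, and 3 and 2 in SNT-16, with ECI1, an isomerase for unsaturated chains, at 0.59 ± 0.05 on average and CPT2 at -0.27 ± 0.05. Of 7 tested genes of mitochondrial fatty acid synthesis, 1 was higher and 3 lower in SNT-8, 0 and 1 in SNK-10, and 1 and 1 in SNT-16. Among 7 tested genes of AMPK, the kinase that phosphorylates both acetyl-CoA carboxylases, 3 were higher in each line and 1, 2 and 1 lower in SNT-8, SNK-10 and SNT-16. The risers were PRKAB1, PRKAB2 and PRKAG1, PRKAB1 by 0.95 ± 0.07, 0.87 ± 0.07 and 0.85 ± 0.07. CAMKK2, a kinase upstream of AMPK, was lower in each line, at -0.14 ± 0.06, -0.22 ± 0.06 and -0.23 ± 0.06.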

How the data were processed

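RNA of 18 libraries (total RNA extracted with Trizol, MGIEasy library kit, per the labels' protocols) was read by the authors with Bowtie2 and HISAT, per the submitters' processing notes, which give no versions; the sources used here do not give the genome build, the counting tool or the use of strand. Per the file headers, the authors deposited an expected count, FPKM and length for each gene. Genes without a record in a library were set to 0. Depth was 9526431 to 10100453 expected counts, and 60.3% to 61.6% of values were whole within 0.005. Symbols came from NCBI Gene IDs (21559 of 21662 by ID, 24 by transcript). Expected counts were rounded and fitted with edgeR 4.0.16 in R 4.3.3: filterByExpr (minimum count 10, total 15; 14396 genes), TMM, 6 group means, a robust quasi-likelihood fit with 12 residual degrees of freedom, and Benjamini-Hochberg adjustment over all tested genes, two-sided. SE is the absolute log2 fold change over the square root of F. FPKM served only to compare levels between genes and, with pseudocounts of 1 and 0.1, for limma 3.58.1; DESeq2 1.42.0, other scalings and filters, single lines, the replicate block and each library left out were the alternatives. Replicates differed by more than sampling noise, and same-numbered libraries did not deviate together (r -0.123 to 0.037). The procedure was checked on simulated counts in which few genes changed, as many up as down and alike in each line. That check does not cover a response as broad as the one here or differences between lines. The members and all lists were chosen with earlier results of these data known; all members are named, and from other lists up to 4 genes by smallest p of the average (at most 2 in the direction fewer genes took), plus tested genes that overlap a member; some genes the rule names are not reported here. CPM intervals of ratios are exact and cover counting error only.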

Additional observations from a re-analysis of the deposited data

Results flagged for a closer look

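The response to icaritin differed between the 3 lines for 18 of the 32 tested genes, by edgeR's quasi-likelihood test of the difference with Benjamini-Hochberg adjustment. Among the early mevalonate genes, the adjusted p was 0.00113 for HMGCS1, 0.0012 for ACAT2, 0.00459 for MVK, 0.0111 for IDI1 and 0.0286 for MVD. Among the late sterol genes, it was 2.1e-06 for DHCR7, 4.3e-06 for SQLE, 0.000151 for CYP51A1, 0.000531 for LSS, 0.000975 for FDFT1, 0.012 for EBP, 0.0125 for NSDHL and 0.0261 for HSD17B7. It was 2.2e-08 for INSIG1, 0.0255 for SREBF2, 1.66e-08 for STARD4, 0.001 for ACSL1 and 0.00939 for ACSL3. Of the 18, 12 passed in every alternative; EBP, HSD17B7, IDI1, MVD, SREBF2 and ACSL3 were lost in at least 1.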

How the results depend on the processing

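Of 76 changes past the threshold in the 3 lines, 69 passed under every one of up to 28 alternatives, and 4 of 20 others passed under at least 1. The count of members higher in SNK-10, 7, was 4 to 7 over the libraries left out in turn. Members that differed between SNK-10 and SNT-8 were 9 with total counts against 14. The genes that differed between SNT-8 and SNT-16, 63 of all tested, were 279 without a filter, 115 with DESeq2, 8 and 9 with limma at pseudocounts of 1 and 0.1, and 18 to 191 over the libraries left out; members among them, 3, were 8, 5, 0 and 0, and 1 to 7. ME1 reversed between SNK-10 and SNT-8, from -2.48 to 0.43 (adjusted p = 0.00393) with limma on log2(FPKM + 1), where its SNT-8 libraries hold almost no counts. The cause of these shifts was not tested. Without SNT-8 icaritin 2, 22 members fell in SNT-8, 20 differed between lines and 7 differed between SNT-8 and SNT-16. With a replicate block, 21, 19 and 21 members fell in SNT-8, SNK-10 and SNT-16, as without it; 0 member calls changed in the 3 lines and 6 between lines (SREBF2 in 3 tests, and ACSL1, INSIG1 and HSD17B7 in 1 each). Depth limits NPC1L1, ACSS2 and ME1.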
